A study of Mus musculus with 4 samples.

Results

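The genes described here are those of the DNA replication machinery: the proteins that mark and license origins, unwind the duplex, copy both strands and supply the deoxynucleotides. They were taken by gene name from the array annotation, with a list of symbols covering the ORC, MCM, GINS, RFC and RPA families, the replicative polymerases and primase, the clamp Pcna, and genes of licensing, firing, strand joining and deoxynucleotide supply. This gave 52 genes on 86 probes, out of 27745 gene names on 41174 probes. The rule uses names and no measured value, but it was set with earlier results of these data known. The samples were mouse embryonic fibroblasts, connective tissue cells from embryos, each hybridised to 1 one-colour (Cy3) Agilent array. In 2 of the 4 samples the fibroblasts carried Oct3/4, Sox2, Klf4 and c-Myc by transduction, the combination used to reprogramme somatic cells to pluripotency, and had been cultured for 72 hours (day 4 in the labels) under 21% or 5% oxygen. The term four-factor cells is used for them. The other 2 were untransduced fibroblasts kept at 21% or 5% O2 for 10 days. Strain, passage and vector are not given in the sources used here. No sample was labelled as an empty-vector control. Four-factor cells are fibroblasts at an early stage of reprogramming and not established pluripotent lines.

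Replication starts at origins bound by the origin recognition complex (ORC). CDC6 and CDT1 load the ring-shaped MCM2-7 helicase there, and geminin (Gmnn) blocks CDT1 once S phase has begun so that no origin is licensed again. The kinase CDC7 with its activator DBF4, and cyclin-dependent kinases, then recruit CDC45 and GINS to turn the loaded ring into the working helicase. Polymerase alpha with primase starts each strand, polymerase epsilon copies the leading strand and polymerase delta the lagging strand, both with the sliding clamp PCNA that RFC loads. Many of these genes are known targets of the E2F transcription factors, which RB-family proteins hold inactive until a cell commits to S phase, so their mRNA is plentiful in proliferating cells and scarce in resting ones.

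The start regions of 6 members show what was searched for E2F sequences. They were chosen on the readout among members with a window in the promoter table, by the gap in oxygen difference, four-factor minus untransduced. They are the 3 members with the largest gap (Cdc6, Orc1 and Mcm10) and the MCM2-7 subunit with the largest (Mcm5). The last 2 (Orc5 and Pold4) have the lowest signed gap, negative for both and not the smallest in size. Each is RefSeq sequence of assembly GRCm38.p6, 5′ to 3′ in the direction of the gene, from 220 bases before the annotated start to 30 bases after it. Capitals mark the E2F core, taken as any of TTCCCGC or TTGGCGC or TTCGCGC or TTGCCGC on either strand.
Cdc6 promoter, chr11:98907931-98908180, plus strand: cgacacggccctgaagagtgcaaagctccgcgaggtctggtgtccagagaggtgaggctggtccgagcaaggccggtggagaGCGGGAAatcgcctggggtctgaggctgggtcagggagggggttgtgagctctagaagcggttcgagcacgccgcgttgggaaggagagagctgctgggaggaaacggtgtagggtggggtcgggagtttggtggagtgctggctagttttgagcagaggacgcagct
Orc1 promoter, chr4:108579234-108579483, plus strand: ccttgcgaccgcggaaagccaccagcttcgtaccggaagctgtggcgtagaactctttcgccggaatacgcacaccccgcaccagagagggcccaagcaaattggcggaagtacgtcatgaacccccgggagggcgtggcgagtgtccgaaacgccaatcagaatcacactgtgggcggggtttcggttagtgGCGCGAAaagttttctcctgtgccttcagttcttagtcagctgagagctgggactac
Mcm5 promoter, chr8:75109289-75109538, plus strand: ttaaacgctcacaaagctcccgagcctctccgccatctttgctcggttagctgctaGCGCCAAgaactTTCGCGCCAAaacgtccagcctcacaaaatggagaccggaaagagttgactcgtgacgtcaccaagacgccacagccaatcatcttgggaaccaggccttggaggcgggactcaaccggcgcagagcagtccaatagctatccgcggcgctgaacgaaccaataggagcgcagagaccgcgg
Mcm10 promoter, chr2:5012762-5013011, minus strand: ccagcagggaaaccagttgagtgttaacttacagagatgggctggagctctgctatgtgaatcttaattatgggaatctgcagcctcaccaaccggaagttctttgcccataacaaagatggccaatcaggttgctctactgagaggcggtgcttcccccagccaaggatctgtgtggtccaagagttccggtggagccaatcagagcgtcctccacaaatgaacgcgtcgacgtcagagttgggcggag
Orc5 promoter, chr5:22550309-22550558, minus strand: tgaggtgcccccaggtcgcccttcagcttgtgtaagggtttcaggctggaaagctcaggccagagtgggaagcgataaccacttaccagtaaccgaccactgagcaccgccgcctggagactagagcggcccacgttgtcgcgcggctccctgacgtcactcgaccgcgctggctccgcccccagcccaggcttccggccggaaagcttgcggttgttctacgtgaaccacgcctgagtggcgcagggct
Pold4 promoter, chr19:4231673-4231922, plus strand: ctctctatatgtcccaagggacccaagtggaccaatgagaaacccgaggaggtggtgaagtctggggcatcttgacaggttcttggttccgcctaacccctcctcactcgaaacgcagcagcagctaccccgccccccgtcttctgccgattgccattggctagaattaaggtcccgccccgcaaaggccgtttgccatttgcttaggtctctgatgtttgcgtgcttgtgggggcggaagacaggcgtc
The Cdc6 window held 1 core, on the opposite strand, 138 bases before the start. Orc1 had 1, also on the opposite strand, 27 bases before the start. Mcm5 had 3, at 164, 152 and 149 bases before the start, and the last of these overlaps the one before it. None of these words was found in the windows of Mcm10, Orc5 or Pold4, which says only that the letters are not there.

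All values are log2 signal relative to the 75th percentile of probes on the same array, so 0 is a probe as bright as that percentile. A level is a value of a probe and is compared only with the same probe on another array. Where 4 levels are listed, the first pair is from four-factor cells and the second from untransduced fibroblasts, each with 21% before 5% O2. All 52 members were well above background on all 4 arrays, and none of their spots was saturated or marked as an outlier. The 75th percentile lay between 810 and 1148 intensity units, and 57.1% to 68.4% of probes were well above background, fewer in the untransduced fibroblasts. Because a condition was measured on 1 array, its spread over cultures is unknown and pairs of arrays were compared without a test. The spread of replicate spots covers hybridisation and scanning only. It was 0.07 to 0.08 log2 units for a difference between 2 arrays. Four-factor and untransduced samples were hybridised on separate slides, so slide and scan, transduction and length of culture cannot be told apart, while each oxygen comparison lies within a slide. The 4 comparisons are made from the same 4 arrays and are not independent of one another. In bulk RNA, fewer cells in S phase and less mRNA per cell cannot be told apart.

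**Figure D1:**
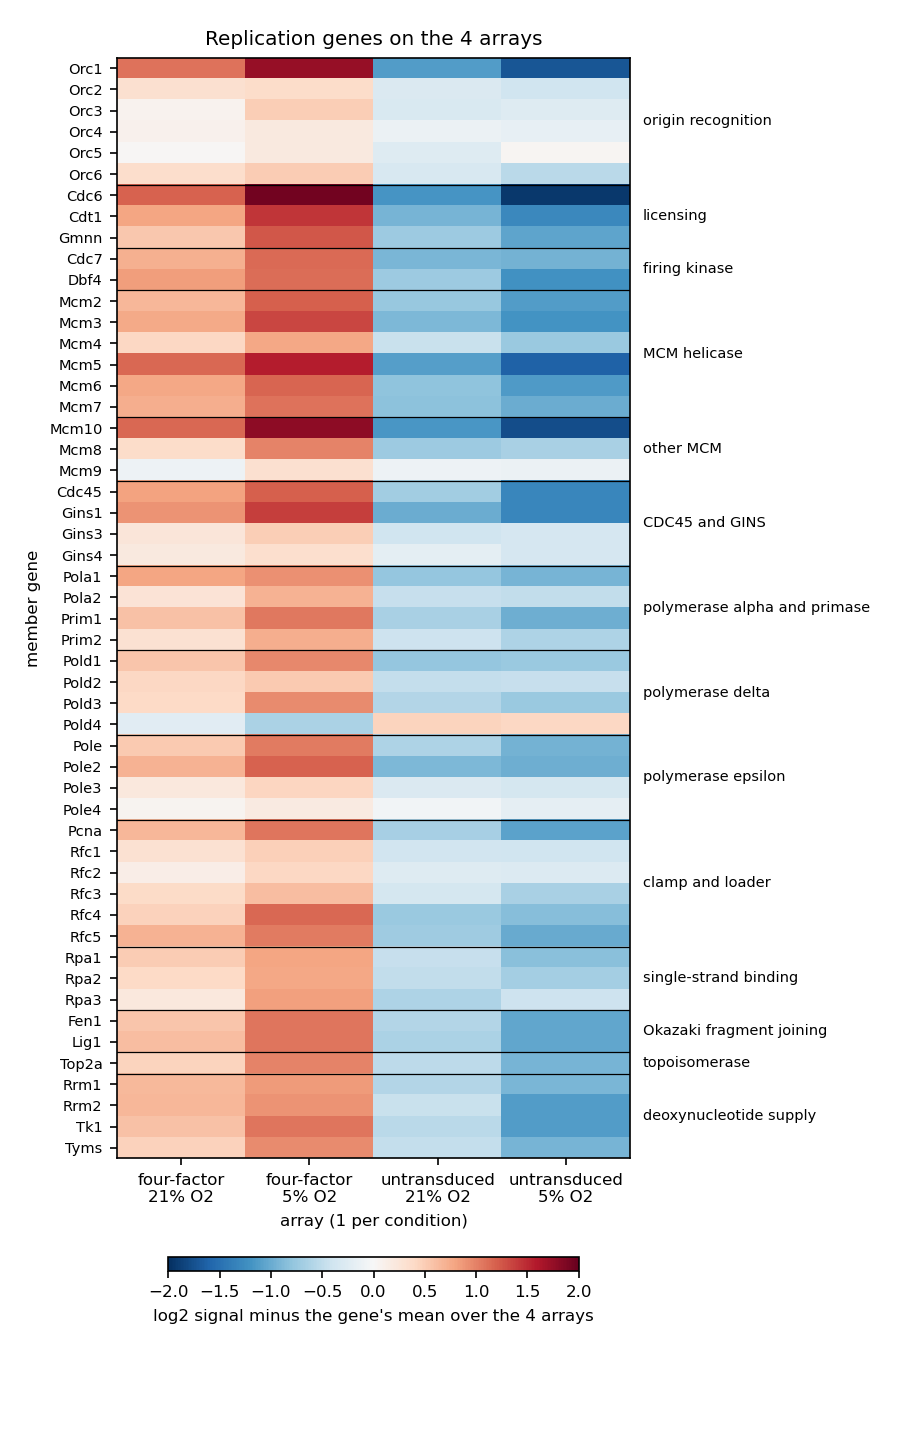
Level of each of the 52 replication genes on the 4 arrays, as log2 signal minus that gene's own mean over the 4 arrays (colour, red above and blue below the mean), with 1 array per column and genes ordered by role. Four-factor cells at 5% O2 are the reddest column and untransduced fibroblasts at 5% O2 the bluest. Pold4 goes the opposite way in four-factor cells, and Pole4, Orc4, Orc5 and Mcm9 are close to even.

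The first comparison asked how oxygen relates to replication genes in cells being reprogrammed. In four-factor cells 51 of the 52 were higher at 5% than at 21% O2, against 48.2% of the 18001 genes measured on both arrays, and Pold4 was lower. The differences were small. Their median was 0.41, a fold of 1.33, with a range from -0.41 to 0.75, and the median of all genes was -0.01. At least 1.5-fold (0.58 log2 units) higher were 8 members, a call that 4.78% of all genes met: the licensing genes Cdc6, Gmnn and Cdt1, the ORC subunit Orc1, the clamp loader subunit Rfc4, Mcm10 and Mcm8, and the single-strand binding subunit Rpa3. No member was at least 1.5-fold lower, where 5.69% of all genes were. None reached 2-fold, a call met by 225 of the 18001 genes on the higher side and 193 on the lower. For 6 members (Orc2, Orc4, Gins4, Pola1, Pold2 and Pole4) the difference was within 0.14, which is 2 standard deviations between spots.

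The second comparison put the same question to untransduced fibroblasts. There 45 of the 52 members were lower at 5% O2 and 7 higher, where 44.8% of the 15250 genes measured were higher. The median was -0.26, a fold of 1.20 lower, against -0.04 for all genes, and the range was -0.76 to 0.30. At least 1.5-fold lower were Cdc6, the ribonucleotide reductase subunit Rrm2, Mcm10 and the helicase partner Cdc45, 4 of 52 where 5.72% of all genes met that call. No member was at least 1.5-fold higher, against 6.90% of all genes. This share of called members is near that of all genes, and the members' result in these arrays is how many lay on one side of 0. On the same pair of arrays the summed signal of macrophage markers was 17.1 times the 75th percentile at 21% and 37.7 times at 5% O2. Lyz2 was the brightest of these markers there, at levels of 3.85 and 4.94, and weighs most on both sums. The part of the macrophage markers in the result was not tested. The difference was within 0.15 (2 standard deviations between spots) for 18 members, among them Pold1, Pold2, Pold4, Rfc1, Rfc2 and Cdc7.

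Set against each other, 44 members (84.6%) had more signal at 5% O2 in four-factor cells and less in untransduced fibroblasts, a combination shown by 24.0% of 14981 genes above background on all arrays. Higher in both were Gins3, Mcm8, Orc3, Orc5, Pold1, Pold2 and Rpa3, and lower in both was Pold4. Of the 7 only Orc5 and Rpa3 exceeded 2 standard deviations between spots (0.15) in untransduced fibroblasts. In that culture the other Orc3 probes read 0.02, -0.33, -0.55 and 0.02, and the other Pold1 probe read -0.03. Under the other scalings tried, 3 to 10 members were higher in untransduced fibroblasts and 42 to 48 went opposite ways. The difference between the cultures' oxygen differences had a median of 0.63 over the members and 0.02 over all genes, and it was above 0 for all members but Orc5 and Pold4. It was at least 1.5-fold for 27 members, against 7.69% of all genes. Cdc6 had the widest gap at 1.51, followed by Orc1 at 1.24, Mcm10 at 1.23, Tk1 at 1.06 and Gmnn at 1.02. At the other end were Pold4 at -0.37, Orc5 at -0.13 and Pold2 at 0.09. Across the 52 members the oxygen differences of the cultures had a Pearson correlation of -0.35 and a Spearman correlation of -0.35, where all genes had 0.25 and 0.17. This is a description across genes of 4 arrays, and genes are not independent replicates. With 1 array per condition the gap between the cultures was not tested.

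**Figure D2:**
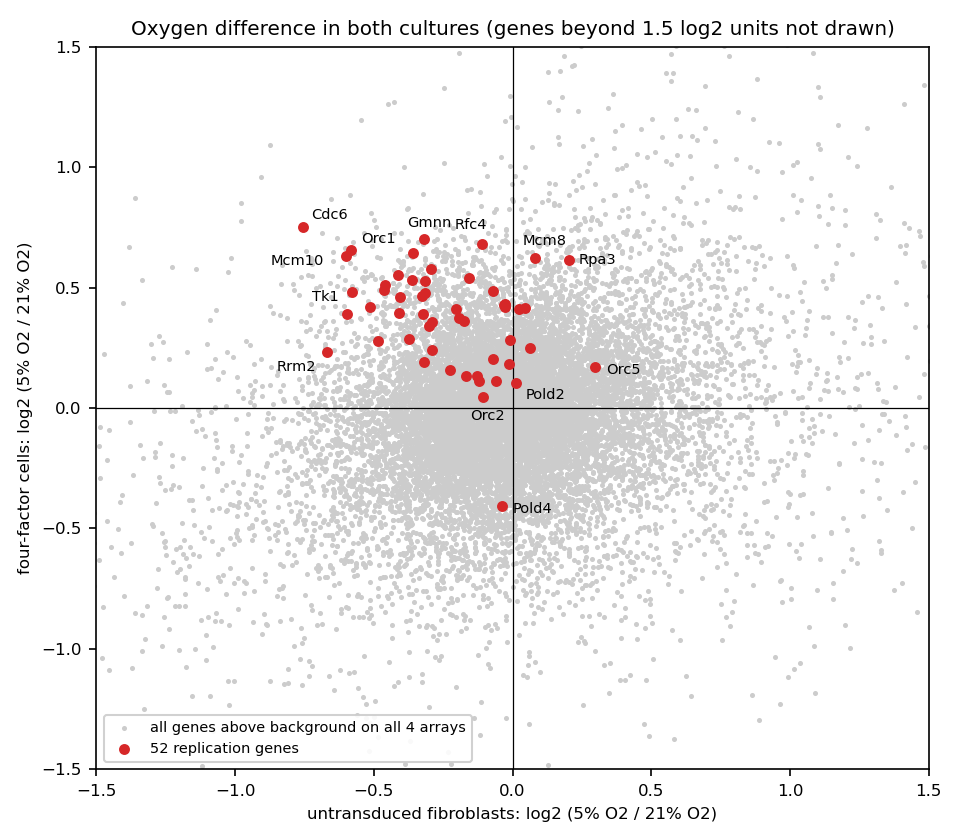
Oxygen difference (5% over 21% O2, log2) of each gene in untransduced fibroblasts (x axis) and four-factor cells (y axis), with replication genes in red and all genes above background on all 4 arrays in grey. Of the 52 red points 44 lie above and left of the zero lines, with Cdc6 farthest out at -0.76 and 0.75.

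The remaining comparisons set four-factor cells against untransduced fibroblasts at the same oxygen level. At 21% O2, 51 members were higher in four-factor cells (49.0% of 15269 genes), with a median of 1.12, a fold of 2.17, against -0.02 for all genes. At least 1.5-fold higher were 43 members, where 23.3% of all genes were. At least 2-fold higher were 28 members, a call met by 1806 of the 15269 genes. Pold4, an accessory subunit of polymerase delta, was the 1 member at least 1.5-fold lower, a call met by 26.0% of all genes. At 5% O2 again 51 were higher (49.3% of 15505 genes), with a median of 1.87, a fold of 3.65, against -0.02 for all genes. The at least 1.5-fold call was met by 47 members on the higher side, against 28.0% of all genes, and by Pold4 on the lower side, against 30.1%. At least 2-fold higher were 39 members, a call met by 2648 of the 15505 genes, and Pold4 was 2-fold lower, as were 3097 genes. Of the 52 members, 44 were higher and Pold4 lower in the culture term of an additive limma model over the 4 arrays (terms for culture and oxygen, adjusted p under 0.05 over 18361 genes), where 27.2% of genes were called higher and 22.7% lower. This term carries slide, scan and time in culture with it. The members not called were Gins4, Rfc2, Orc3, Orc4, Orc5, Pole4 and Mcm9, with adjusted p-values from 0.0713 to 0.388 by limma. The oxygen term of that model called 0 members and, with the 75th percentile scaling, 0 of all genes (smallest adjusted p 0.436). At an unadjusted p under 0.05, 647 genes were higher and 753 lower at 5% O2, none of them a member. That model takes the oxygen difference to be equal in both cultures and counts any gap between them as error.

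Scaling set the all-gene level in these counts. When the arrays were scaled on their spike-in controls, the median of all genes moved from near 0 to 0.14 and -0.11 in the oxygen comparisons (four-factor, then untransduced) and to 0.38 and 0.61 in the four-factor comparisons (21%, then 5% O2). Members at least 1.5-fold higher with low oxygen in four-factor cells were then 20 in place of 8. Genes at least 1.5-fold higher and lower were 1593 and 548 in place of 861 and 1025 for oxygen in four-factor cells, and 880 and 1125 in place of 1052 and 873 for oxygen in untransduced fibroblasts. They were 6133 and 2574 in place of 3551 and 3976 for the four-factor difference at 21% O2, and 7870 and 2561 in place of 4345 and 4673 at 5% O2. With spike-in scaling the culture term of limma called 8954 genes higher and 2669 lower in place of 4996 and 4174, and 51 members higher in place of 44. The oxygen term then called 326 genes higher and 223 lower, still with 0 members. The total degrees of freedom of limma, after moderation over genes, went from 3.8 to 49.4. The error estimate thus changed with this scaling too, and the limma counts of the 2 scalings differ for that reason as well. Measured from the median of all genes, the members' median was 0.42, -0.22, 1.14 and 1.88 in the 4 comparisons. Median and spike-in scaling add 1 constant per array and cannot change these values. Quantile normalization, which can, gave 0.42, -0.20, 1.11 and 1.83, and normexp with quantile normalization gave 0.41, -0.18, 1.0 and 1.76. Pold4 was not at least 1.5-fold lower in four-factor cells at either oxygen level with spike-in scaling, and not at 21% O2 with median scaling.

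**Figure D3:**
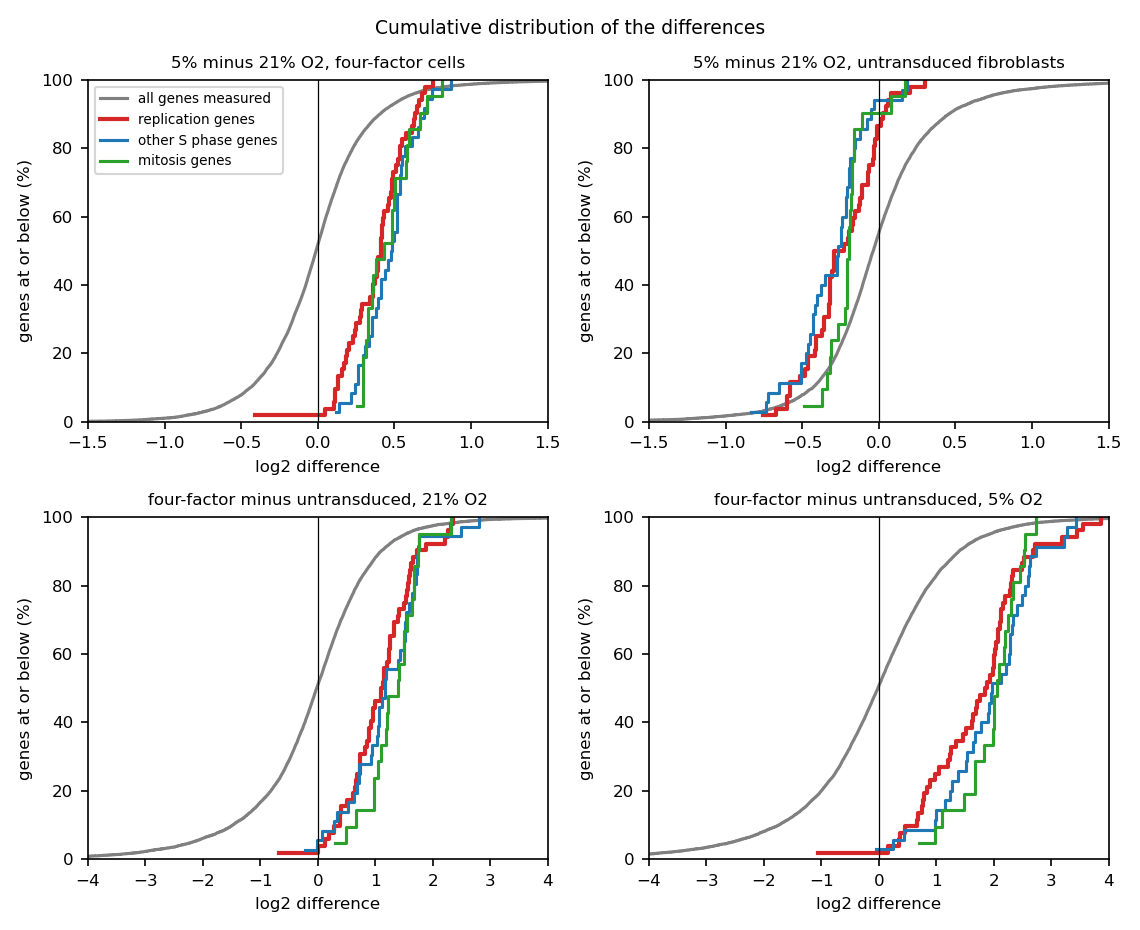
Cumulative share of genes (y axis, percent) at or below a log2 difference (x axis) in each of the 4 comparisons, for all genes measured (grey), the replication genes (red), other S phase genes (blue) and mitosis genes (green). At the median the red curve lies to the right of the grey one in all panels but that of untransduced fibroblasts, where its median is -0.26 against -0.04.

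Among the origin recognition genes Orc1 stood apart from the other subunits in size of difference. Orc1, the ATPase subunit that is made and removed with the cell cycle, had levels of -1.41, -0.75, -3.61 and -4.19, on a probe at chromosome 4, 108110099 to 108111006 (mouse build mm8, as for all probe positions here). It was thus higher at 5% O2 by 0.66 in four-factor cells and had a difference of -0.58 in untransduced fibroblasts, and its four-factor differences were 2.21 (21% O2) and 3.45 (5% O2). The culture term was 2.83 ± 0.36 (SE, 4 arrays, adjusted p = 0.0099, limma). Orc6, which is less tightly bound to the complex, had 3.86, 4.02, 3.20 and 2.97. For Orc2, a core subunit, the levels were 2.52, 2.56, 1.91 and 1.80. Orc3, its partner in the core, had 0.91, 1.33, 0.53 and 0.58 on the probe used, and its probes disagreed. Both probes annotated to a separate cDNA clone were lower at 5% O2 in four-factor cells (-0.17 and -0.11), while the 3 probes to the reference transcript were higher by 0.24 to 0.41. Orc4 and Orc5 had four-factor differences of 0.19 and 0.28 at 21% O2 and 0.37 and 0.15 at 5% O2. Orc5 was the member highest with low oxygen in untransduced fibroblasts, at 0.30. The median four-factor difference of the 6 subunits was 0.50 at 21% and 0.76 at 5% O2.

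The 3 licensing genes had the largest oxygen differences of any role in four-factor cells (median 0.70). Cdc6, which loads the MCM ring, read -0.26, 0.49, -2.61 and -3.37 (chromosome 11, 98737349 to 98737408). It was the brightest in four-factor cells at 5% O2 and the dimmest in untransduced fibroblasts at 5% O2, and the four-factor difference went from 2.35 at 21% to 3.86 at 5% O2, the largest of any member on both. Its other probe had oxygen differences of 0.40 and -0.64 and four-factor differences of 1.76 and 2.80, all in the same direction. The culture term for Cdc6 was 3.11 ± 0.42 (SE, 4 arrays, adjusted p = 0.011, limma). Cdt1, its partner in loading, had 3.44, 4.09, 1.72 and 1.36 (chromosome 8, 125459083 to 125459142). Geminin, the inhibitor of Cdt1, had 3.88, 4.58, 2.62 and 2.30 (chromosome 13, 24759448 to 24759507). Both thus followed the order of Cdc6, so loaders and inhibitor moved the same way in these arrays, with four-factor differences at 5% O2 of 2.73 for Cdt1 and 2.29 for Gmnn.

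The 6 subunits of the MCM2-7 helicase were alike. Low oxygen went with higher levels of all 6 in four-factor cells, by 0.36 to 0.58, and lower at 5% O2 in untransduced fibroblasts, by differences of -0.51 to -0.18. Mcm5 had the largest four-factor differences, with levels of 3.61, 4.03, 1.34 and 0.83 (chromosome 8, 78023523 to 78023583) and a culture term of 2.73 ± 0.29 (SE, 4 arrays, adjusted p = 0.0076, limma). Mcm3 had 4.07, 4.65, 2.41 and 2.12. The levels of Mcm2 were 1.80, 2.33, 0.38 and 0.02. Mcm6 had 5.30, 5.69, 3.72 and 3.40. On each of these probes the 4 arrays stood in the same order, with four-factor cells at 5% O2 highest and untransduced fibroblasts at 5% O2 lowest. The smallest four-factor differences of the ring were those of Mcm4, at 0.86 and 1.51. A further Mcm4 probe, to a cDNA clone, was not well above background on any array.

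Of the MCM-named proteins outside the ring, Mcm10, which helps start the helicase, had differences as large as those of the licensing genes. Its levels were 2.79, 3.43, 0.48 and -0.12 (chromosome 2, 4908071 to 4908130), with oxygen differences of 0.63 and -0.60 and four-factor differences of 2.32 and 3.55. Mcm8 and Mcm9, which form a separate complex in recombination repair, did not show the same pattern. Mcm8 had 0.32, 0.94, -0.79 and -0.70, higher at 5% O2 in both cultures. Mcm9 had -2.67, -2.25, -2.67 and -2.70, so it stood out on the array of four-factor cells at 5% O2. Its other probe read 0.86 and 1.02 for the four-factor differences where the probe used read 0.00 and 0.45.

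The firing kinase was higher in four-factor cells in both subunits. The catalytic subunit Cdc7 had 0.23, 0.66, -1.39 and -1.42, and its activator Dbf4 had 1.62, 1.90, 0.06 and -0.43. In untransduced fibroblasts the oxygen difference was -0.48 for Dbf4 and -0.03 for Cdc7. Of the helicase partners, Cdc45 had -0.52, -0.13, -2.03 and -2.63 (chromosome 16, 18706869 to 18708350). The GINS subunit Gins1 had 1.18, 1.66, -0.71 and -1.02 (chromosome 2, 150622573 to 150622632), with four-factor differences of 1.89 and 2.68. The other GINS subunits were flatter. Gins3 had four-factor differences of 0.65 and 0.84, and Gins4 of 0.40 and 0.66. Gins2 is not on the array under that name. The members of this 1 complex thus spanned a four-factor difference at 5% O2 from 0.66 to 2.68.

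In polymerase alpha, the catalytic subunit Pola1 had 1.56, 1.69, 0.00 and -0.16 and the largest four-factor difference of its role at 21% O2, 1.56. With oxygen it differed little, by 0.13 and -0.17. The accessory subunit Pola2 had -0.60, -0.17, -1.33 and -1.36. The catalytic primase subunit Prim1 had 2.52, 2.98, 1.28 and 0.96, and its large subunit Prim2 had 1.76, 2.18, 1.03 and 0.83. All 4 were at least 1.5-fold higher in four-factor cells at both oxygen levels.

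Polymerase delta held the exception among the members. Its catalytic subunit Pold1 had 2.98, 3.39, 1.66 and 1.69, and the subunits Pold2 and Pold3 had 1.24, 1.34, 0.35 and 0.37, and 1.01, 1.55, 0.02 and -0.14. Pold4, the smallest subunit, which stabilises the complex and is degraded after DNA damage, had 0.15, -0.25, 0.83 and 0.80 on its 1 probe (chromosome 19, 4232799 to 4232858). It was lower in four-factor cells, with differences of -0.68 at 21% and -1.05 at 5% O2 and a culture term of -0.87 ± 0.19 (SE, 4 arrays, adjusted p = 0.028, limma). With oxygen, Pold4 had a difference of -0.41 in four-factor cells, where it was -0.04 in untransduced fibroblasts. The array with the highest levels of the other 3 subunits, four-factor cells at 5% O2, was the one where Pold4 was lowest. The Pold3 probes disagreed on oxygen in untransduced fibroblasts, where 2 read -0.16 and -0.29 and the other 0.32.

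Polymerase epsilon was divided in size by kind of subunit. The catalytic subunit Pole had 2.04, 2.57, 0.90 and 0.58, and Pole2, which binds it, had 0.34, 0.82, -1.26 and -1.34. Their four-factor differences were 1.14 and 1.60 at 21% O2 and 1.99 and 2.16 at 5% O2. The histone-fold subunits, which also serve in chromatin complexes, differed less. Pole3 had 3.1, 3.31, 2.60 and 2.53. Pole4 had 2.56, 2.67, 2.44 and 2.32, and it was not called by the culture term (0.23 ± 0.17 SE, 4 arrays, adjusted p = 0.31, limma). Its probes differed in size. The four-factor differences (21%, then 5% O2) were 0.12 and 0.35 on the probe used. The other probes read 0.78 and 0.91, and 0.32 and 0.36.

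The clamp Pcna was the member measured with the most spots, since its probe was printed 10 times on each array. The mean over 10 spots was 5.28 ± 0.04 and 5.68 ± 0.05 (SD between spots) in four-factor cells under 21% and 5% oxygen. In untransduced fibroblasts it was 3.95 ± 0.04 and 3.54 ± 0.04. The spots of the 4 arrays did not overlap. They ranged from 5.21 to 5.34, from 5.57 to 5.73, from 3.87 to 3.99 and from 3.46 to 3.59, in the same order. The opposite oxygen differences of 0.40 and -0.41 were thus each larger than the spread between spots, while the spread between cultures was not measured. Of the RFC subunits that load the clamp, Rfc5 had 3.09, 3.43, 1.68 and 1.38, and Rfc4 had 2.66, 3.34, 1.45 and 1.34. Rfc3 had 0.45, 0.69, -0.28 and -0.57. The large subunit Rfc1 and the small subunit Rfc2 differed less, by 0.69 and 0.39 between cultures at 21% O2 and by 0.88 and 0.68 at 5% O2.

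The single-strand binding trimer RPA was at least 1.5-fold higher in four-factor cells in all 3 subunits at both oxygen levels. Rpa1, which makes most of the DNA contacts, had 3.36, 3.65, 2.40 and 2.03, and Rpa2 had 1.74, 2.11, 0.85 and 0.65. Rpa3 had 1.81, 2.43, 1.0 and 1.20, the largest of the 3 with oxygen in four-factor cells (0.61) and the 1 subunit that was higher at 5% O2 in untransduced fibroblasts too (0.20). Okazaki fragments are trimmed by the flap nuclease Fen1 and sealed by the ligase Lig1. Fen1 had 1.62, 2.13, 0.47 and 0.01, and Lig1 had 3.70, 4.16, 2.44 and 2.04. Both kept the same order of arrays, with four-factor cells at 5% O2 highest. Topoisomerase Top2a, which untangles sister duplexes and also serves in mitosis, had 1.05, 1.60, 0.09 and -0.33.

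The genes that supply deoxynucleotides had the most negative oxygen difference of any role with several members in untransduced fibroblasts, with a median of -0.52 over 4 genes. Rrm2, the regulated subunit of ribonucleotide reductase, had 2.13, 2.37, 1.03 and 0.36 (chromosome 12, 25302833 to 25302889), with a difference of -0.67 there. Its partner Rrm1 had 4.33, 4.52, 3.09 and 2.77. Thymidine kinase Tk1 had 3.34, 3.82, 2.21 and 1.63, and thymidylate synthase Tyms had 3.73, 4.22, 2.80 and 2.34. In four-factor cells the same 4 genes were higher at 5% O2, by 0.19 to 0.49, and none reached 1.5-fold.

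Genes of S phase outside the replication machinery were on the same side. Of 37 listed (chromatin assembly, checkpoint, nucleotide and cell cycle regulators), 36 were on the array by name. In four-factor cells all 36 were higher at 5% O2 with a median of 0.48, where 48.2% of all genes were higher. At least 1.5-fold higher were 7 of the 36, against 4.78% of all genes. The replisome scaffold Wdhd1 at 0.87 and the histone chaperone Nasp at 0.75 led these. In untransduced fibroblasts 33 of 35 measured were lower with a median of -0.27, where 44.8% of all genes were higher. At least 1.5-fold lower were 4 of the 35, against 5.72% of all genes, with cyclin Ccne2 at -0.83 and the repressor E2f8 at -0.74. The four-factor medians were 1.16 at 21% and 1.97 at 5% O2. Within the E2F family the genes differed. The activator E2f2 had 1.04, 1.61, -1.77 and -1.62, higher in four-factor cells by 2.81 and 3.23. E2f1 had -0.30, -0.18, -0.08 and -0.13, and E2f3 had 2.12, 2.33, 2.12 and 2.09, neither of them 1.5-fold apart in any comparison. All 21 mitosis genes listed were on the higher side at 5% O2 in four-factor cells (median 0.43) and in four-factor cells over untransduced fibroblasts (medians 1.39 and 2.06), and 19 were lower at 5% O2 in untransduced fibroblasts (median -0.20). The medians of the replication, S phase and mitosis genes thus had the same sign in each comparison.

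Markers of cell type differed between these arrays as well. The 11 fibroblast markers were above background on all 4 arrays. Their signals summed to 869 and 752 times the 75th percentile in four-factor cells and 1299 and 1233 times in untransduced fibroblasts. By gene, 9 of the 11 were lower in four-factor cells at each oxygen level, with medians of -1.67 at 21% and -1.75 at 5% O2 and Lum lowest at -5.60 and -6.31. Vim and S100a4, which were higher in four-factor cells by 0.50 and 0.40 at 21% O2, are bright and weigh on the sums. With oxygen, all 11 fibroblast markers were lower at 5% O2 in four-factor cells (median -0.21), as were 8 in untransduced fibroblasts (median -0.14). Pdgfra, Lum and Dcn were higher at 5% O2 in untransduced fibroblasts, by 0.82, 0.64 and 0.58. Macrophage markers were above background for 13 of 14 genes in untransduced fibroblasts, with the summed signals given above. All 13 were higher at 5% O2 there (median 1.41), on the array where 45 replication genes were lower. In four-factor cells the summed signal was 0.97 and 0.79 times the 75th percentile. There 7 of the 14 markers were above background, and Adgre1, Mrc1, C1qa, C1qc, Tyrobp, Ptprc and Aif1 were not. Itgam went the other way, above background on both four-factor arrays and on neither untransduced array. Cd68 was higher in four-factor cells at 21% O2, by 0.85, and lower at 5% O2, at -1.04. Whether macrophages were present, and what part they had in the replication gene differences, was not tested.

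RefSeq promoter windows, from 250 bases before to 50 bases after the start, were found for 45 of the 52 members. Gins1, Gins4, Gmnn, Mcm4, Pole, Prim2 and Rfc2 had none. An E2F core was found in 28 of the 45 (62.2%), against 10.9% of 27025 genes in the table. The share was 19.7% of 7904 genes above background on all 4 arrays with a window under their array name. Names were updated for members only, so genes under outdated array names are missing from the 7904. The CCAAT box (CCAAT on either strand, free to overlap a core) was in 60.0% of the members and 41.1% of the genes in the table. The CHR element, TTTGAA, known from genes of late cell cycle phases, was in 17.8% of the members, 20.2% of the genes in the table and 14.0% of those above background on all arrays. For the CCAAT box that last share was 42.8%. Members with and without a core overlapped in each comparison. In four-factor cells the oxygen difference had a median of 0.42 over the 28 members with a core and 0.39 over the 17 without. In untransduced fibroblasts the medians were -0.17 and -0.36, with overlapping ranges of -0.76 to 0.20 and -0.60 to 0.30. The four-factor medians were 1.22 and 0.96 at 21% O2, and 1.93 and 1.88 at 5% O2. Among the 7904 genes, those with a core had medians of 0.02 and -0.06 for oxygen in four-factor and untransduced cells, and those without had -0.04 and -0.03. No test was made of these splits, which share the windows' base composition, and a match does not show binding.

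**Figure D4:**
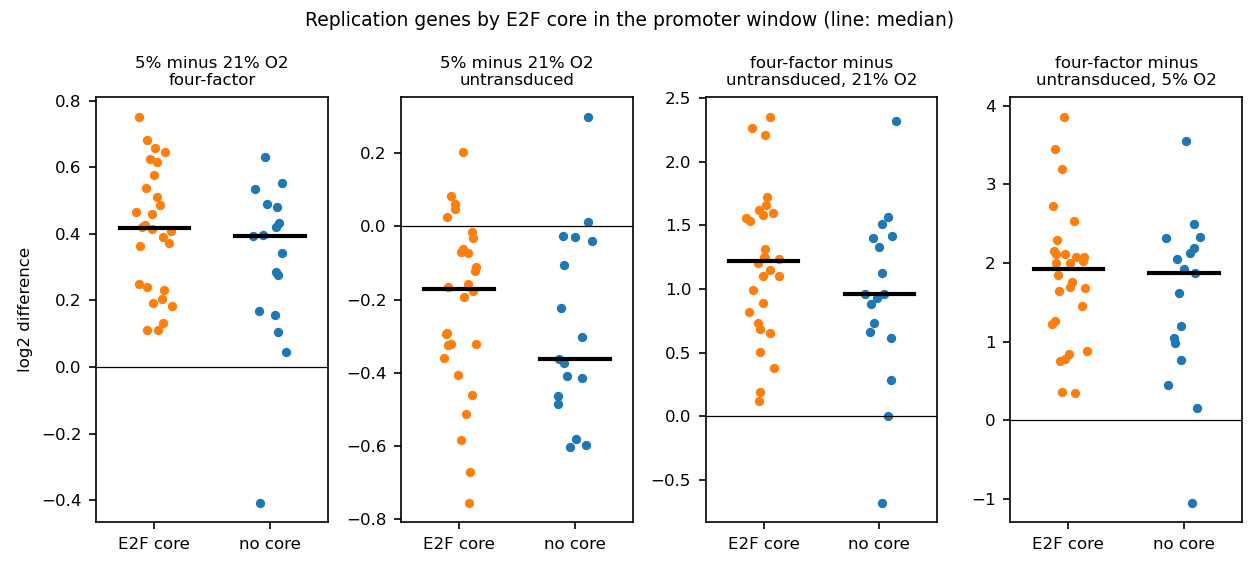
Log2 difference (y axis) of the 45 replication genes with a promoter window in each comparison, split by whether the window holds an E2F core (28 genes, orange) or not (17 genes, blue), with a line at the median and points spread sideways for visibility. The groups overlap in every panel, with medians of 0.42 and 0.39 for oxygen in four-factor cells, and the lowest blue point in 3 panels is Pold4.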

How the data were processed

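Cy3 labelling of total RNA from 4 samples followed Agilent's Quick Amp procedure (5.7), per the labels. Spots were read with Feature Extraction 9.5.3.1 on array design 014868, per the file headers. Per the file headers, the deposited processed signal is an intensity after background subtraction and spatial detrending, with no scaling between arrays. The deposited value table holds log2 values of unstated origin. Its columns matched the log2 values used here within 0.01 for 99.8% to 99.9% of probes.

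Here, spots with an outlier flag were dropped, spots of a probe averaged, and log2 processed signal centred on the array's 75th percentile. A gene was read on its brightest probe over the 4 arrays, so a difference rests on 1 probe. A gene counted as measured when well above background on both arrays of a comparison, and as called when at least 1.5-fold apart. Replicate-spot spread comes from probes with at least 5 spots, as bright as the dimmest member. The additive model (limma 3.58.1 in R 4.3.3, lmFit and eBayes, Benjamini-Hochberg adjustment over all genes above background on at least 2 arrays) leaves 1 residual degree of freedom. Both the counting and the model were run on simulated data with known differences. That checks the code only and does not measure the spread between cultures. Gene names follow the array annotation, updated through a gene table of GRCm38.p6 for 7 of the 52 members. Array positions are in mm8. Names in text follow a rule: members by role, up to 4 per role with all levels plus those whose probes disagree, and up to 4 genes of other lists per comparison. E2f1, E2f3 and some of the cell type markers were named after their values were seen. The members and lists were chosen with earlier results of these data known. Median, quantile, spike-in and normexp scalings, other filters, the mean of all probes, a 2-fold call and the deposited table were tried as alternatives.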

Additional observations from a re-analysis of the deposited data

Results flagged for a closer look

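The oxygen differences of the replication genes lay on opposite sides of 0 in the cultures. The difference between them, four-factor minus untransduced, had a median of 0.63 over the 52 members, and for 44 members low oxygen went with more signal in four-factor cells and less in untransduced fibroblasts. Cdc6 and Mcm10 were at least 1.5-fold apart in each culture in opposite directions, with differences between the cultures of 1.51 and 1.23. Each culture had 1 array per oxygen level, and these differences were not tested.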

How the results depend on the processing

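No paired analysis was possible because the groups share fewer than 2 replicate numbers, with 1 array each, and for the same reason no replicate was left out. The additive model already compares the cultures within each oxygen level. Members' medians for the 4 comparisons kept their sign under every alternative run. With median scaling the four-factor medians were 1.27 at 21% and 2.04 at 5% O2. At 21% O2, 0 members were then at least 1.5-fold lower, against 3343 of 15269 genes. With spike-in scaling the medians were 0.56 for oxygen in four-factor cells and 1.52 and 2.49 for the four-factor differences, the gap between the oxygen differences was 0.85, 20 members were at least 1.5-fold higher with low oxygen in four-factor cells, 3 were higher in untransduced fibroblasts, and 0 were at least 1.5-fold lower in either four-factor comparison or in the culture term of limma. With normexp background and quantile normalization the four-factor medians were 1.0 and 1.74. At least 1.5-fold lower with low oxygen in untransduced fibroblasts was then 1 member, against 507 of 15250 genes. A 2-fold call left 0 members in either oxygen comparison, and 28 higher and 0 lower in the four-factor comparison at 21% O2. Of all genes it was met by 225 (higher) and 193 (lower) of 18001 for oxygen in four-factor cells. The counts were 387 and 263 of 15250 for oxygen in untransduced fibroblasts, and 1806 and 2533 of 15269 for the four-factor difference at 21% O2. With the mean of all probes of a gene, the four-factor median at 5% O2 was 1.69. At 21% O2, 2 members were then at least 1.5-fold lower, against 4213 of 15302 genes. That setting turned the four-factor difference of Mcm4 (-0.70 at 21% and -0.091 at 5% O2), Pola2 (-0.16), Pole (-0.25) and Rrm1 (-0.22, the last 3 at 21% O2); each of these 4 genes has a further probe that was not above background on any array. Of 104 member differences of at least 1.5-fold, 76 stayed within the spot spread with the mean of all probes, 67 with quantile normalization, 49 with normexp, 12 with median and 4 with spike-in scaling, and the 5 named here turned. Both other filters cannot change a member's difference, since all are above background everywhere, and the deposited table holds nearly the same values. The limma calls did depend on the genes kept. With only genes above background on all 4 arrays, the culture term called 47 members higher (4221 of 14981 genes) in place of 44. With normexp it called 45 (5005 of 18348 genes) and with the mean of all probes 40 (4654 of 18386 genes). With 1 array per condition, differences below the spread between cultures, which was not measured, are not resolved.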
